A study of Mus musculus with 6 samples.

Results

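The genes described here are 9 mouse genes of metallothioneins, copper handling and selenium binding, listed by symbol. They are the metallothioneins Mt1, Mt2 and Mt4 and the copper transport genes Atp7a, Slc31a1 and Atox1. The others are the copper ferroxidase gene Hephl1 and the selenium-binding protein genes Selenbp1 and Selenbp2. Of these 9 genes, 7 had a probe set among the 16331 tested. Hephl1 and Selenbp2 had none and have no value here. RNA of dissected skin was hybridised to Affymetrix arrays from 3 wild type samples and 3 mutant samples, the latter labelled as a Hoxc13 knockout with the targeted allele Hoxc13tm1Mrc. Hoxc13 is a homeobox gene whose protein regulates hair formation. Titles give 5 dpn as the age of both groups, and both share a C57BL/6 background and the label male. The 3 samples of a group are called independent, while zygosity and whether a sample is 1 animal or a pool are not given in the sources used here. The p-values therefore measure the spread between these samples.

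Metallothioneins are small cysteine-rich proteins that hold zinc and copper in thiolate clusters. Mt1 and Mt2 are made in most tissues and are induced by metals through the factor Mtf1, which binds metal response elements, whereas Mt4 is known from differentiating stratified epithelia such as skin and tongue. Copper enters cells through Slc31a1 (Ctr1), is carried by the chaperone Atox1, and is pumped into the secretory pathway or out of the cell by Atp7a, the gene of Menkes disease, in which hair is kinked and pale. Copper enzymes cross-link elastin and collagen and make melanin.

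All values are RMA values on the log2 scale, with a median of 7.405 on every array, and a difference is mutant minus wild type. A gene is said to have risen or fallen where limma's moderated test gave an adjusted p under 0.05 (Benjamini-Hochberg over all 16331 probe sets). Hoxc13 itself read 9.63, 9.81 and 9.83 in wild type and 8.95, 8.75 and 9.74 in mutant replicates 1, 2 and 3, a difference of -0.61 (SE 0.23, adjusted p = 0.293 by limma). It passed without mutant replicate 3 (-0.90, adjusted p = 0.00114) and with array weights (-0.83, adjusted p = 0.00878). The sources used here do not place its probes relative to the targeted part, so the level is no check of the labels. Mutant replicate 3 stood apart, correlating at 0.989 and 0.990 with the other mutant arrays over all probe sets, against 0.997 between those. Against the label male, Xist read 11.15 to 11.67 on the 6 arrays, and none of 6 Y-linked probe sets exceeded 4.89. No array matched that label, so no result can be given without the arrays concerned. The value of 4.89 serves here as a level that genes absent from the tissue can reach.

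Of the 7 measured genes, Mt4 and Selenbp1 fell in mutant skin, none rose, and 5 did not pass the test. Over all probe sets 2.08% were called in either direction and 1.6% were called lower. The median difference of the 7 genes was 0.057, against 0.025 over all probe sets, so the listed genes had no common shift. Groups did not overlap for 3 of the 7 genes (Mt4, Selenbp1 and Atp7a), and for 20.3% of all probe sets. The genes were listed with results of these data known, so their count is a description.

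**Figure D1:**
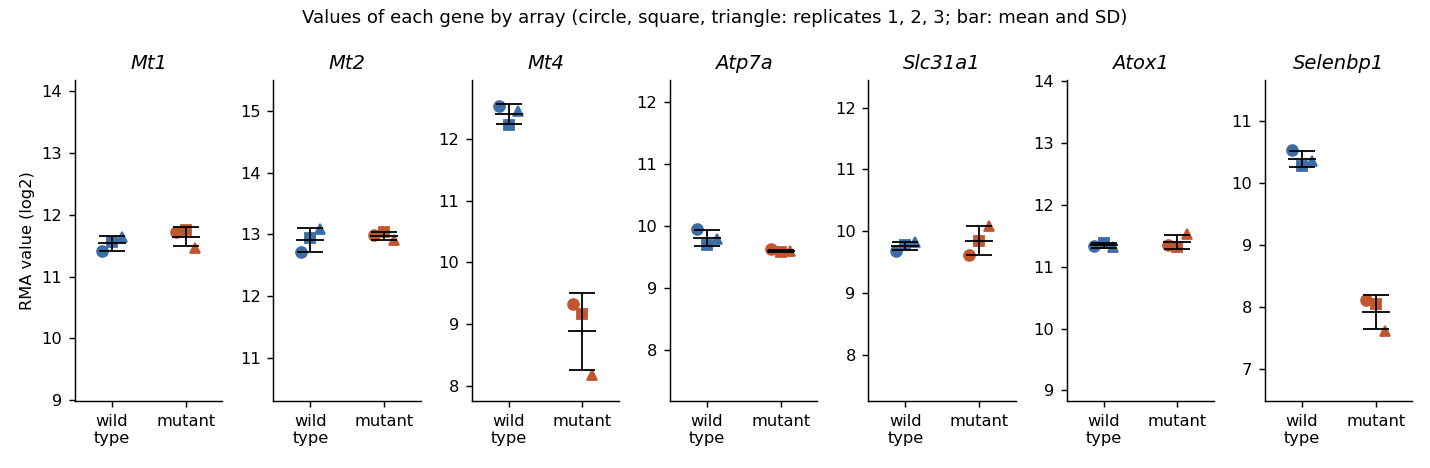
RMA values (log2, vertical axis) of the 7 measured genes on each of the 3 wild type (blue) and 3 mutant (orange) arrays, with group mean and SD as black bars. Every panel spans the same number of log2 units. Mt4 and Selenbp1 are lower on every mutant array, and mutant replicate 3 (triangle) is the lowest of both.

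Mt4, the metallothionein of stratified epithelia, showed the larger of these decreases. It read 12.53, 12.22 and 12.45 in wild type replicates 1, 2 and 3, and 9.33, 9.16 and 8.18 in mutant replicates 1, 2 and 3. All 3 mutant arrays lay below all wild type arrays, and mutant replicate 3 lay 1.07 below the mean of the other mutant arrays. The group means were 12.40 ± 0.16 and 8.89 ± 0.62 (SD, n = 3 each), a difference of -3.51 (SE 0.28, adjusted p = 6e-04 by limma). On the linear scale this is 11.4-fold lower, with a 95% confidence interval of 7.28-fold to 17.9-fold. Without mutant replicate 3 the difference was -3.16 (adjusted p = 1.61e-06). The call was lost when the variance was not moderated across genes (adjusted p = 0.0787). The lowest mutant value, 8.18, was still above the 4.89 reached by Y-linked probe sets. In whole skin, fewer cells that express a gene and less of its RNA per cell cannot be told apart.

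Mt1 and Mt2, the widely expressed metal-inducible metallothioneins, did not pass the test. Mt1 read 11.41, 11.55 and 11.64 in wild type and 11.71, 11.75 and 11.46 in mutant replicates 1, 2 and 3. The highest values came from mutant replicates 1 and 2, but mutant replicate 3 lay inside the wild type range. The difference of Mt1 was 0.11, with a 95% confidence interval of -0.13 to 0.35 (adjusted p = 0.685 by limma). Leaving out 1 array gave 0.046 (without wild type replicate 1) to 0.20 (without mutant replicate 3), none called. Mt2 read 12.71, 12.95 and 13.09 in wild type and 12.98, 13.04 and 12.91 in mutant skin, and here all mutant values lay inside the wild type range. Its difference was 0.061, with an interval of -0.19 to 0.31 (adjusted p = 0.846). These intervals leave room for a fold of up to 1.27 for Mt1 and 1.24 for Mt2, but not for a decrease of the size seen in Mt4.

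The same values were also compared within each array, which is no separate evidence of the unequal change in the family. The value of Mt4 minus that of Mt1 was 0.67 to 1.12 on the wild type arrays and -3.29 to -2.38 on the mutant arrays. Only the shift between groups can be read from this, since probe sets differ in brightness. The change of Mt4 minus that of Mt1 was -3.62 log2 units, and against Mt2 it was -3.57 (exact permutation p = 0.1 for each, two-sided). With 3 arrays a group no smaller p is possible, and adjusted over 6 such pairs by Benjamini-Hochberg both were 0.15. The differences of Mt1 and Mt2, neither of which passed, lay 0.048 apart (exact permutation p = 0.5, adjusted 0.50), which does not show that they acted alike.

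The metallothionein genes are neighbours on chromosome 8, in the order Mt4, Mt3, Mt2 and Mt1, between Bbs2 and Nup93 among the measured genes of the RefSeq annotation. Mt3, the metallothionein best known from brain, is on the list of other copper genes and is named here for its position, after its values were seen. It read 5.12 to 5.21 in wild type and 4.74 to 5.09 in mutant skin, close to the level of Y-linked probe sets, with a difference of -0.27 (adjusted p = 0.273 by limma). The flanking genes Bbs2 and Nup93 differed by 0.024 and -0.0027, and neither passed. Mt4 was the only gene called among these 6 neighbours.

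The bases around the start of these genes are shown because Mt1 and Mt2 are known to be induced through metal response elements. All 9 listed genes matched the RefSeq promoter table (GRCm38.p6), which gives windows of 250 bases before to 50 after the annotated start. The annotated starts were not checked against measured starts of transcription. The windows may therefore cover unlike parts of the promoters, and elements outside them were not counted. The metal response element core was searched as TGCACNC and TGCGCNC on both strands, with overlapping matches counted, and 25.7% of 32851 windows hold at least 1. Capitals mark the matches, and each sequence reads 5′ to 3′ on the strand of its gene. The windows of Mt2 (chr8:94172368-94172617) and Mt4 (chr8:94136954-94137203) are the 250 bases before the start, and that of Mt1 (chr8:94179091-94179115) is a 25-base stretch just after its annotated start, all on the plus strand.
Mt1: TGCACTCcgcccgaaaagTGCGCTC
Mt2: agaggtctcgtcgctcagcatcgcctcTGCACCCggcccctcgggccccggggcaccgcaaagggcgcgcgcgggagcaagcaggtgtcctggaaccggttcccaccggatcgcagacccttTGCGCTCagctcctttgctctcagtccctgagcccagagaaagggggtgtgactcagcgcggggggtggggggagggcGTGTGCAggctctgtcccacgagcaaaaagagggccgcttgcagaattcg
Mt4: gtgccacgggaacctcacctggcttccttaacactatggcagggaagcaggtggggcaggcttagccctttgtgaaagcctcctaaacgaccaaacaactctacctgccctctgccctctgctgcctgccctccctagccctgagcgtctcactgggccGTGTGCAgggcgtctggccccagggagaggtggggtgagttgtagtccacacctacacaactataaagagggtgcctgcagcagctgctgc

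The Mt1 window held 3 matches, at -23, 3 and 21 from the start, and the Mt2 window held 4, at -223, -128, -50 and 5. Windows with 3 or more matches made up 1.97% of the table and those with 4 or more 0.517%. The Mt4 window held 1 match, at -91 on the opposite strand. It also held a TATA box core (TATAAA) at -30, which 13.6% of windows hold on either strand. The windows of Hephl1, Selenbp1 and Selenbp2 held a TATA box core too, on the opposite strand. The called Mt4 had fewer matches in its window than the uncalled Mt1 and Mt2, which is a description of letters and not of factor binding. The window of Mt3 was not searched. Outside the family, the called Selenbp1 and the uncalled Atp7a held 2 matches each, and the uncalled Slc31a1 and Atox1 held none.

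A consensus reported for Hoxc13 was searched on both strands as TTAATNAA, TTAATNAG, TTAATNGA, TTAATNGG, TTTATNAA, TTTATNAG, TTTATNGA and TTTATNGG. These words overlap in part with the reverse complement of the TATA box core. Of all windows 18.9% held at least 1. None of the 9 listed genes had a match in its window, which says only that these letters are not there.

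**Figure D2:**
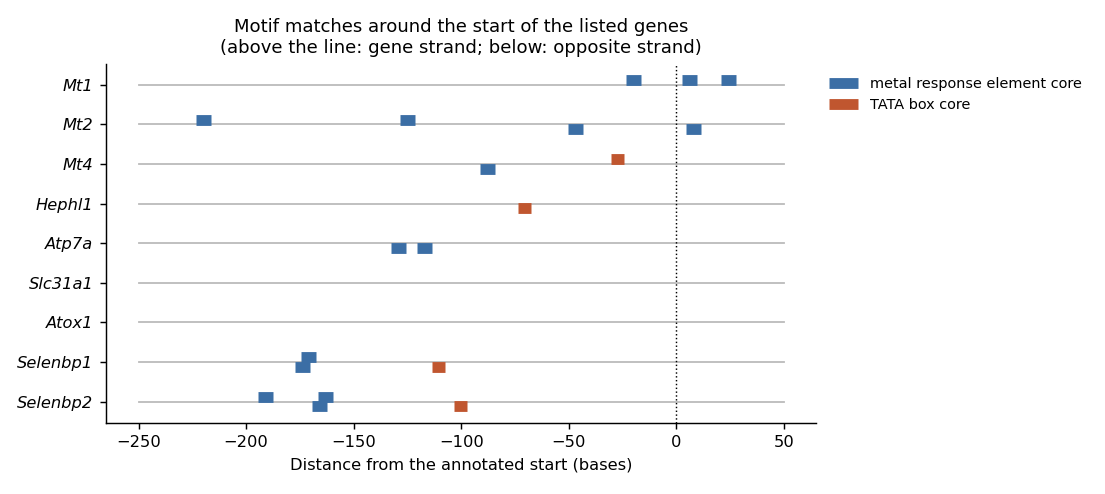
Matches to the metal response element core (blue) and the TATA box core (orange) in the windows of the 9 listed genes, by distance from the annotated start in bases, with the gene's own strand above and the opposite strand below each line. Mt1 and Mt2 hold 3 and 4 metal response element cores, Mt4 holds 1, and no window holds a match to the Hoxc13 words.

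Selenbp1 encodes a selenium-binding protein that acts as a methanethiol oxidase. It read 10.54, 10.28 and 10.36 in wild type and 8.11, 8.05 and 7.61 in mutant replicates 1, 2 and 3. Mutant values lay below all wild type values, with mutant replicate 3 again the lowest, by 0.47 against the mean of the others. The means were 10.39 ± 0.13 and 7.92 ± 0.27 (SD, n = 3 each), a difference of -2.47 (SE 0.14, adjusted p = 8.45e-05 by limma). This is 5.54-fold lower on the linear scale, with a 95% confidence interval of 4.40-fold to 6.97-fold. Without mutant replicate 3 the difference was -2.31 (adjusted p = 4.09e-06). Decreases of 2 log2 units or more were seen in 77 probe sets, 0.471% of those tested, and Mt4 and Selenbp1 are both among them.

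Selenbp2 is a close copy of Selenbp1 on the same chromosome, and the probe set of Selenbp1 may read both transcripts, so its value is uncertain in that respect. The likeness extends upstream. The 250 bases before the start of Selenbp1 (chr3:94932833-94933082) and Selenbp2 (chr3:94693323-94693572), both on the plus strand of GRCm38.p6 from RefSeq, were identical at 223 of 262 aligned positions, or 85.1%. For comparison, the same bases of Mt1 and Mt2 were identical at 45.7% of aligned positions. The sequences are shown for this likeness, with metal response element cores in capitals.
Selenbp1: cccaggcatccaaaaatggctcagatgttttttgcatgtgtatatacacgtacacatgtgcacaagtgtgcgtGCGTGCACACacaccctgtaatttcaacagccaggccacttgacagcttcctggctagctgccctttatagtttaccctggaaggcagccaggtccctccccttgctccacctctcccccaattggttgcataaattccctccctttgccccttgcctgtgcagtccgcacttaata
Selenbp2: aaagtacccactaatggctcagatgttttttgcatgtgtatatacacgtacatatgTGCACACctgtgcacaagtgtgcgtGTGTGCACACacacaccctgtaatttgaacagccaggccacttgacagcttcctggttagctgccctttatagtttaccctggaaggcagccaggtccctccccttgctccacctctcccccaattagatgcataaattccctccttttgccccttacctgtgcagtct

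Selenbp1 held 2 overlapping matches on opposite strands, at -177 and -174, and Selenbp2 held 3, the last pair overlapping likewise. Windows with 2 or more matches made up 7.11% of the table. The measured neighbours of Selenbp1 on chromosome 3, the proteasome subunit gene Psmb4 and the transcription factor gene Rfx5, differed by 0.013 and -0.099, and neither passed.

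The copper transport genes did not pass the test. Atp7a, the copper pump, read 9.94, 9.69 and 9.78 in wild type and 9.62, 9.58 and 9.59 in mutant replicates 1, 2 and 3. Every mutant value lay below every wild type value, although the gap between the groups was small. The difference was -0.21 (SE 0.08, adjusted p = 0.311 by limma), with a 95% confidence interval of -0.40 to -0.016 that is not adjusted for the number of genes. Without mutant replicate 3 it was -0.20 (adjusted p = 0.169).

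Slc31a1, the copper importer, read 9.69, 9.77 and 9.83 in wild type and 9.61, 9.84 and 10.09 in mutant skin, with mutant values on both sides of the wild type range. Its difference was 0.083, with an interval of -0.20 to 0.36 (adjusted p = 0.808 by limma), and -0.037 without mutant replicate 3. Atox1, the chaperone that hands copper to Atp7a, read 11.33, 11.39 and 11.32 in wild type and 11.36, 11.32 and 11.53 in mutant skin. Only mutant replicate 3 lay outside the wild type range. Its difference was 0.057, with an interval of -0.13 to 0.24 (adjusted p = 0.798), and -0.0070 without mutant replicate 3. The intervals of these 3 genes exclude changes as large as those of Mt4 and Selenbp1, and do not show that the genes were unchanged.

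**Figure D3:**
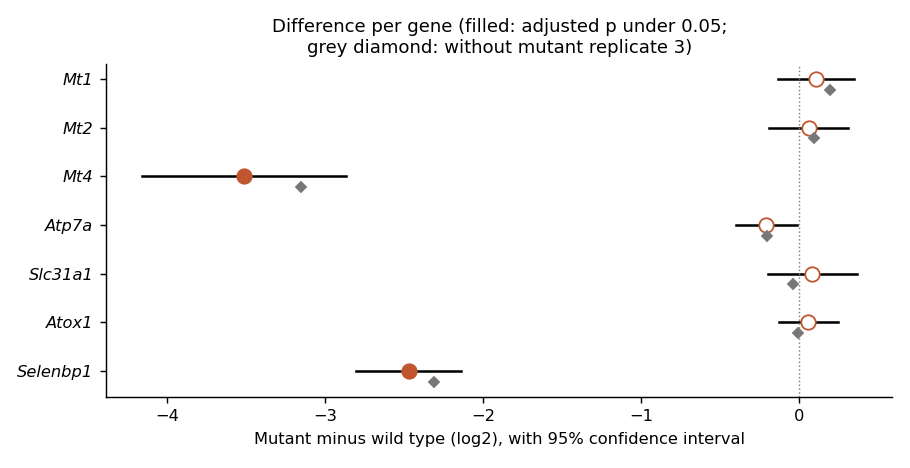
Difference between mutant and wild type (log2, horizontal axis) of each measured gene with its 95% confidence interval from limma, filled where the adjusted p was under 0.05, with the difference without mutant replicate 3 as a grey diamond. Mt4 (-3.51) and Selenbp1 (-2.47) lie apart from the other 5 genes, which lie between -0.21 and 0.11.

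The genes whose values over the 6 arrays were most like those of Mt4, by the root mean square difference after centring each gene on its wild type mean, were Procr, Krt36 and S100a3, at 0.19, 0.43 and 0.58 log2 units. Procr encodes the endothelial protein C receptor, Krt36 is a hair keratin, and S100a3 is a cysteine-rich calcium- and zinc-binding protein of the hair cuticle. Their differences were -3.51, -3.67 and -3.24. Procr, like Mt4, was lowest in mutant replicate 3 (6.40, against 6.92 and 6.99), whereas S100a3 was highest there (10.36, against 9.87 and 9.76). For Selenbp1 the most similar genes were Rnf182, a ubiquitin ligase gene, Tagln3 and the hair keratin gene Krt84, at 0.20, 0.23 and 0.31 log2 units. Their differences were -2.45, -2.29 and -2.11. These were chosen among 15637 named genes over 6 arrays that share the same 2 groups, so they describe size and direction only.

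**Figure D4:**
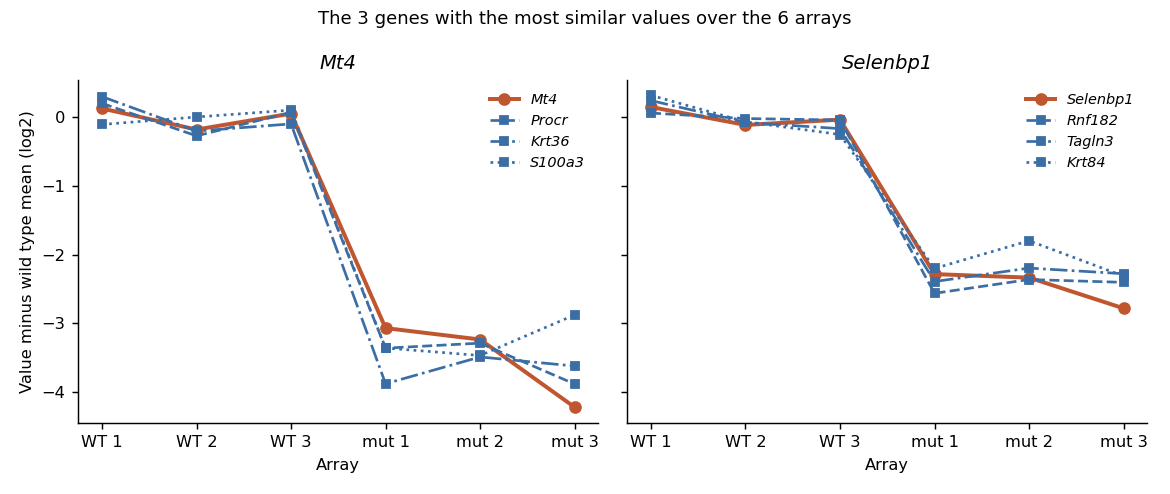
Values minus the wild type mean (log2, vertical axis) on each array for Mt4 and Selenbp1 (orange) and for the 3 genes most like each (blue). Mt4 and Procr fall furthest in mutant replicate 3, while S100a3 is least reduced there.

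Cell type markers that moved with the group are given beside these decreases. Of 12 hair shaft keratins 10 were measured and all 10 fell, and their summed level, as log2 of the summed linear values, was 15.48 to 15.80 in wild type and 8.96 to 9.46 in mutant skin. Mutant replicate 3 had the lowest sum (8.96). Suprabasal keratinocyte markers (9 of 10 measured, 2 lower, none higher) summed to 15.55 to 15.59 in wild type and 15.48 to 15.72 in mutant skin. Basal keratinocyte markers (8 of 8 measured, none called) summed to 14.44 to 14.60 and 14.55 to 14.82. Inner root sheath markers (8 of 9 measured, 2 lower) summed to 16.25 to 16.34 and 15.89 to 16.27. Of these 4 lists only the hair shaft sums were separated between groups. Among 9 further marker lists (sebocyte, melanocyte, fibroblast, adipocyte, skeletal muscle, macrophage, mast cell, endothelial and erythroid), only the macrophage sums were separated, at 11.49 to 11.57 in wild type and 11.60 to 12.06 in mutant skin, with 7 of 7 markers measured and none called. In those 9 lists, 1 of 8 skeletal muscle markers and 1 of 6 sebocyte markers measured were higher and no other marker was called. The skeletal muscle sums overlapped, at 14.19 to 15.12 in wild type and 14.84 to 15.58 in mutant skin. With all arrays 1.6% of all probe sets were called lower and 0.478% higher. The fit without mutant replicate 3 called 14.2% in either direction. There all 10 hair shaft, 4 of 8 inner root sheath and 3 of 9 suprabasal markers were lower, and 2 of 8 basal markers were higher. Of the further lists, 5 of 8 melanocyte markers were lower. Markers higher there were 4 of 6 mast cell, 4 of 7 macrophage and 3 of 8 skeletal muscle markers. So were 3 of 6 adipocyte and 2 of 7 fibroblast markers. In the same fit 3 sebocyte markers were lower and 2 higher, and 1 erythroid marker was lower. No marker of the hair shaft, inner root sheath, suprabasal and basal lists other than Krt2 stayed at or below 4.89 on every array. The part of the hair shaft in the decreases of Mt4 and Selenbp1 was not tested.

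Other genes of copper handling showed few calls. Of 19 further copper transport and chaperone genes 16 were measured, 1 rose, none fell and 15 did not pass, with a median difference of 0.063. The gene that rose was Prnp, the copper-binding prion protein, which read 11.85, 12.15 and 12.02 in wild type and 12.58, 12.53 and 12.47 in mutant skin. Its groups did not overlap, and the difference was 0.52 (SE 0.09, adjusted p = 0.0342 by limma). Of 20 genes listed as copper-dependent enzymes 17 were measured, among them the tyrosinase relatives Dct and Tyrp1, whose need for copper was not checked. Of these 17 genes 1 rose and 16 did not pass, with a median of 0.020. That gene was Cp, ceruloplasmin, a copper ferroxidase of the same family as Hephl1, at 6.71, 6.87 and 6.58 in wild type and 7.41, 7.32 and 7.12 in mutant skin. The difference was 0.56 (SE 0.11, adjusted p = 0.0488). Over all probe sets 0.478% were called higher. The calls of Prnp and Cp held only in the fit without mutant replicate 3 among the 6 fits with 1 array left out, over ranges of 0.45 to 0.59 and 0.49 to 0.64.

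Zinc handling, which shares metallothioneins as a store, had no call among 22 measured of 25 listed genes (limma), and none of the 22 had an unadjusted p under 0.05. The median difference was 0.0020. The smallest p belonged to the importer Slc39a8, at 10.35, 10.80 and 10.82 in wild type and 10.86, 10.91 and 11.37 in mutant skin, a difference of 0.39 (adjusted p = 0.37). It was 0.22 without mutant replicate 3 and 0.23 without wild type replicate 1. Mtf1, the factor that induces Mt1 and Mt2 in response to zinc, differed by 0.022 (adjusted p = 0.946). Slc30a1, a zinc exporter that Mtf1 also induces, differed by -0.19 with all arrays (adjusted p = 0.447) and by -0.30 without mutant replicate 3 (adjusted p = 0.0264). It was named after its values were seen.

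Among iron handling genes 20 of 24 were measured, 1 fell, none rose and 19 did not pass, with a median of -0.15. The gene that fell was Cybrd1, a ferric and cupric reductase of the cell surface, at 8.15, 7.90 and 7.92 in wild type and 6.86, 6.93 and 7.25 in mutant skin. Its groups did not overlap, with a difference of -0.98 (SE 0.12, adjusted p = 0.00755 by limma), and it passed whichever single array was left out, but not without variance moderation (adjusted p = 0.136). Among selenoproteins 21 of 24 were measured, 2 fell, none rose and 19 did not pass, with a median of 0.033. Over all probe sets 1.6% were called lower. Txnrd1, cytosolic thioredoxin reductase, fell by 0.62 (SE 0.08, adjusted p = 0.0111) and Sephs2, which makes the selenium donor for selenocysteine, fell by 0.44 (SE 0.08, adjusted p = 0.0351). Txnrd1 lost its call without any single wild type array or without mutant replicate 2 (range -0.68 to -0.56). Sephs2 lost it without any array other than mutant replicate 3 (range -0.48 to -0.39). Selenbp1 is not a selenoprotein in the sense of this list, since it holds no selenocysteine.

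With all arrays, 3 of 16 copper transport and 4 of 17 copper enzyme genes had an unadjusted p under 0.05 (limma). So had 6 of 20 iron and 6 of 21 selenoprotein genes. Groups did not overlap for 3, 4, 8 and 6 of these genes in that order, and for 20.3% of all probe sets. The iron genes Slc25a37 (-0.91, adjusted p = 0.0577) and Trf (0.82, adjusted p = 0.0591) were near the threshold, and were named after their values were seen. Without mutant replicate 3, 14.2% of all probe sets were called in either direction. In that fit 3 copper transport genes were higher and none lower, 3 copper enzymes were higher and 2 lower, 2 zinc genes were lower, 1 iron gene was higher and 5 lower, and 3 selenoproteins were higher and 2 lower. Of the 7 listed genes it called Mt4 and Selenbp1 and no other.

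**Figure D5:**
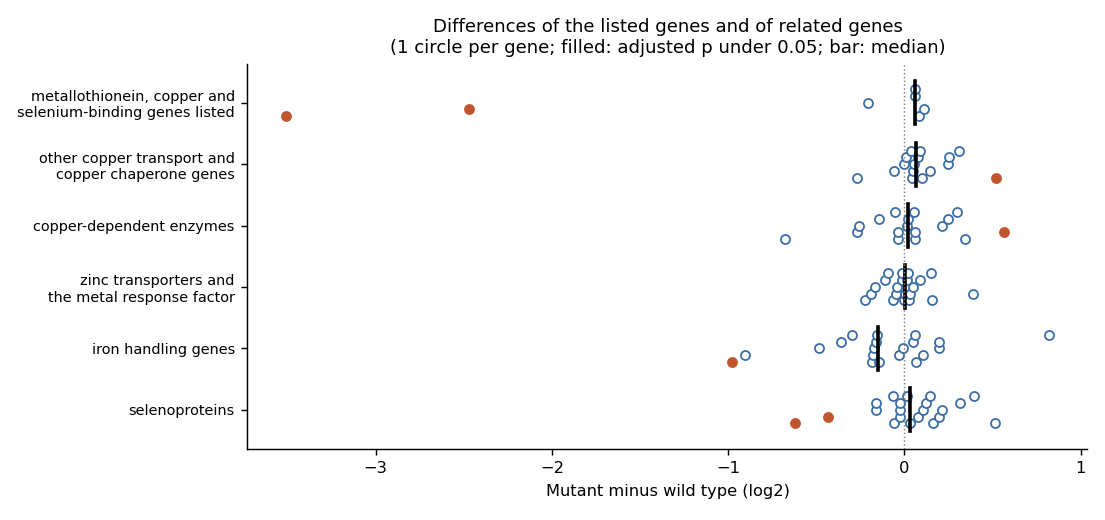
Differences between mutant and wild type (log2, horizontal axis) of the 7 measured listed genes and of 5 lists of related genes, with 1 circle per gene, filled where the adjusted p was under 0.05, and the median as a bar. Mt4 and Selenbp1 lie at -3.51 and -2.47, and all genes of the related lists lie between -0.98 and 0.82.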

How the data were processed

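Skin RNA of 3 wild type and 3 mutant samples was labelled by oligo(dT)-primed amplification, per the labels' protocols, which reads 3′ ends. The authors deposited log2 values made by RMA, per the submitters' processing notes, which name no version. The method equalises array distributions and compresses differences near background. Of 16395 rows, 64 controls were left out. The array annotation named 15644 of 16331 probe sets, 1 symbol each. Arrays give no counts, and their number limits the precision.

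Groups, taken from titles, were compared by lmFit and eBayes of limma 3.58.1 under R 4.3.3 (two-sided, no filter or block), a procedure tested on simulated data. Alternatives were a low-value filter, repeated quantile normalisation, centring, a trended robust prior, array weights, the replicate block, no moderation and leaving out each array. Named were the listed genes, Hoxc13, up to 4 called genes per related list or that with the smallest p, and the 3 genes most like each called one. The genes, lists and motifs were chosen with earlier results of these data known. Promoter sequences are RefSeq's (GRCm38.p6). Figures used Python 3.11.15 and matplotlib 3.10.9.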

Additional observations from a re-analysis of the deposited data

How the results depend on the processing

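Mt4 and Selenbp1 kept their direction under all 13 alternatives, and their calls under all but 1. Leaving out each array gave -3.73 to -3.16 for Mt4 and -2.56 to -2.31 for Selenbp1, all called. Without variance moderation Mt4 was -3.51 but not called (adjusted p = 0.0787), and Selenbp1 was called there (adjusted p = 0.0382). Mt1, Mt2, Atp7a, Slc31a1 and Atox1 were called under none. Their sign turned for Mt2 without wild type replicate 1 (-0.043; range -0.043 to 0.15), for Slc31a1 with array weights (-0.012) and without mutant replicate 3 (-0.037; range -0.037 to 0.20), and for Atox1 without mutant replicate 3 (-0.0070; range -0.0070 to 0.100). The count of 339 called probe sets was 1880 with array weights, 197 with the replicate block, 84 without moderation and 151 to 2316 when an array was left out, highest without mutant replicate 3. Called genes among copper transport, copper enzyme, zinc, iron and selenoprotein genes (1, 1, 0, 1 and 2) were 2, 5, 1, 5 and 5 with array weights, and 0, 0, 0, 0 and 0 without moderation. With the replicate block they were 0, 0, 0, 2 and 1, and the trended robust prior called 0 copper enzymes. Leaving out an array gave ranges of 0 to 3, 0 to 5, 0 to 2, 1 to 6 and 0 to 5. The cause of these moves was not tested. Same-numbered arrays of the 2 groups did not deviate together (correlations of 0.036, -0.12 and -0.087). This gives no sign of pairing by number, but so few arrays cannot exclude it. Depth does not apply to arrays, and without detection calls a level near that of Y-linked probe sets is not separated from background.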
